A study of Mus musculus with 66 samples.

Results

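The 8 genes Smtnl2, Slc25a23, Zfyve28, Loxl2, Ccdc82, Maged2, Epha8 and Epor were taken from the 11513 genes of each deposited table. They were chosen by symbol as genes whose newly made introns and newly made exons moved apart at 4 h after Myc activation. The choice used the labelled libraries at 4 h and 0 min, so that contrast is described here without a test, and no threshold for the choice is stated. The cells were 3T9 fibroblasts, a mouse embryonic fibroblast line of the genotype c-mycflox/flox, infected in culture with MycER. The MycER protein joins Myc, a transcription factor, to an oestrogen receptor fragment that responds to the drug 4-hydroxytamoxifen (OHT), so OHT switches Myc activity on. All groups carried the floxed c-myc alleles and MycER. Cells were collected at 11 times: before OHT (0 min), at 10, 20 and 30 min, and at 1, 1.5, 2, 4, 8, 12 and 16 h of 400 nM OHT. For newly made RNA, cells were given 300 µM 4-thiouridine (4sU), a nucleoside that enters RNA as it is made, during a pulse of 10 min, and the labelled RNA was sequenced in triplicate at every time. Total RNA was also sequenced as 3 libraries per time, which gave 66 libraries. The design has no time course without OHT, so time in culture and OHT cannot be told apart. The labels do not say whether replicates were separate cultures, or whether labelled and total libraries shared cultures, so the p-values reflect only library-to-library spread and that spread may be technical.

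Introns are removed soon after they are transcribed, so intron reads in newly made RNA follow transcription closely. Exon reads in newly made RNA come from unspliced and spliced molecules made during the label, and exon reads in total RNA follow the amount of mature RNA. Both parts of newly made RNA are commonly used to measure transcription. The 8 genes were not chosen by pathway. Smtnl2 is a smoothelin-like protein of a family that binds the actin cytoskeleton, Slc25a23 is a calcium-regulated carrier of ATP-Mg and phosphate in the inner mitochondrial membrane, and Zfyve28 is a FYVE-domain protein known to restrain epidermal growth factor receptor signalling. Loxl2 is a secreted lysyl oxidase that crosslinks collagen, Epha8 is an Eph receptor tyrosine kinase for ephrin-A ligands, Epor is the erythropoietin receptor, Maged2 belongs to the MAGE family, and Ccdc82 is a coiled-coil protein.

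Start regions of the 4 genes whose introns rose are shown because Myc, with its partner Max, binds the E-box CACGTG. Each is 250 bases before to 50 bases after the start, from RefSeq on GRCm38.p6, 5′ to 3′ on the gene's own strand, which is the minus strand for all of them. The regions are chr11:72411664-72411963 for Smtnl2, chr17:57059814-57060113 for Slc25a23 (the first of 2 starts listed), chr5:34288275-34288574 for Zfyve28 and chr4:136956767-136957066 for Epha8. Capitals mark CACGTG.
Smtnl2: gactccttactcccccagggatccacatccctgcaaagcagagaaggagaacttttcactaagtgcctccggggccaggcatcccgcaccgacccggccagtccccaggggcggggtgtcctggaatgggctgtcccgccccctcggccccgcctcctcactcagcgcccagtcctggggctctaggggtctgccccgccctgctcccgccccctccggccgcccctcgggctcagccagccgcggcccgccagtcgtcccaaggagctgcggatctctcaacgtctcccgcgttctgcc
Slc25a23: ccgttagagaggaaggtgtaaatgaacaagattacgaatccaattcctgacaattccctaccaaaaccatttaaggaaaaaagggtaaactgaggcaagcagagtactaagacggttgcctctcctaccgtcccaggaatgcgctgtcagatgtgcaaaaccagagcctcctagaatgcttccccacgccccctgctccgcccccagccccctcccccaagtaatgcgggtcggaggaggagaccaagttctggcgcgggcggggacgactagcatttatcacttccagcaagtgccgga
Zfyve28: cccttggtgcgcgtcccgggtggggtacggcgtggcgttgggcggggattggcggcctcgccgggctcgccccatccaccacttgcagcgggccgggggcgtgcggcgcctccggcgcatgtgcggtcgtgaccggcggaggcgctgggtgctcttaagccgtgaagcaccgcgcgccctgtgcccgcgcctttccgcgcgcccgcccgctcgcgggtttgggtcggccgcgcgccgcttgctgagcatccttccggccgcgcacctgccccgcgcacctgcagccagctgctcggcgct
Epha8: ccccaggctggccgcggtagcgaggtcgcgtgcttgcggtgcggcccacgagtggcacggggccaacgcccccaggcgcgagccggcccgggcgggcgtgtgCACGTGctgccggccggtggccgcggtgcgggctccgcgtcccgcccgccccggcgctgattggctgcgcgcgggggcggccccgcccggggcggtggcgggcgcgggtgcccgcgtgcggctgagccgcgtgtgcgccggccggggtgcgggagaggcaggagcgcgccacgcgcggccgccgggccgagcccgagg
The motif, which reads the same on both strands, began 148 bases before the Epha8 start and was found in no other listed start region of Smtnl2, Slc25a23, Zfyve28, Epor, Ccdc82 or Maged2. It occurred in 7.15% of 32817 start regions of this length. G and C made up 70.7% of the Smtnl2 region, 54.0% of the Slc25a23 region, 77.0% of the Zfyve28 region and 84.3% of the Epha8 region. No start region is given for Loxl2.

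The genes were placed on mm9, the build the submitters' processing notes name, with GENCODE M1. Smtnl2 lies at chr11:72202666-72225215, Slc25a23 at chr17:57183134-57199286, Zfyve28 at chr5:34537523-34631098 and Epor at chr9:21763343-21768020, all on the minus strand. Epha8 lies at chr4:136485334-136512731 and Maged2 at chrX:147240913-147248888, also on the minus strand, and Loxl2 lies at chr14:70008978-70095640 on the plus strand. Ccdc82 was not placed. The Loxl2 body lies entirely within Gm16867, a lincRNA gene on the other strand, and Slc25a23 overlaps Crb3 by 759 bases and Gm17168 by 3433 bases, both on the other strand. The sources used here do not say if counting used strand, so reads of these overlapping genes cannot be told apart.

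Values below are the deposited whole numbers scaled between libraries, called scaled values, and they compare a gene with itself, not with another gene. Whole-table sums of a library ranged over 11619390 to 14118146 in labelled exons, 31279341 to 39258946 in labelled introns, 46498084 to 52716124 in total exons and 10649913 to 13008655 in total introns. These numbers had been rescaled before deposit, so true read depth is unknown. Of 10 fibroblast markers listed, 9 were in the tables, with a summed total-RNA exon level of 1677 to 3068 RPKM (reads per kilobase, scaled to library size). Its median was 2883 RPKM in the 9 libraries at 0, 10 and 20 min and 1899 RPKM in the 9 libraries at 8, 12 and 16 h. None of the listed erythroid, epithelial or skeletal muscle markers was among the genes of the tables. Of 4 blood and macrophage markers, 3 were, and summed to 2.56 to 4.53 RPKM, while endothelial Pecam1 reached at most 0.146 RPKM and smooth muscle Myh11 at most 0.0484 RPKM. The part of these marker levels in the results below was not tested. In bulk RNA, fewer cells of a type and less RNA per cell cannot be told apart.

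**Figure D1:**
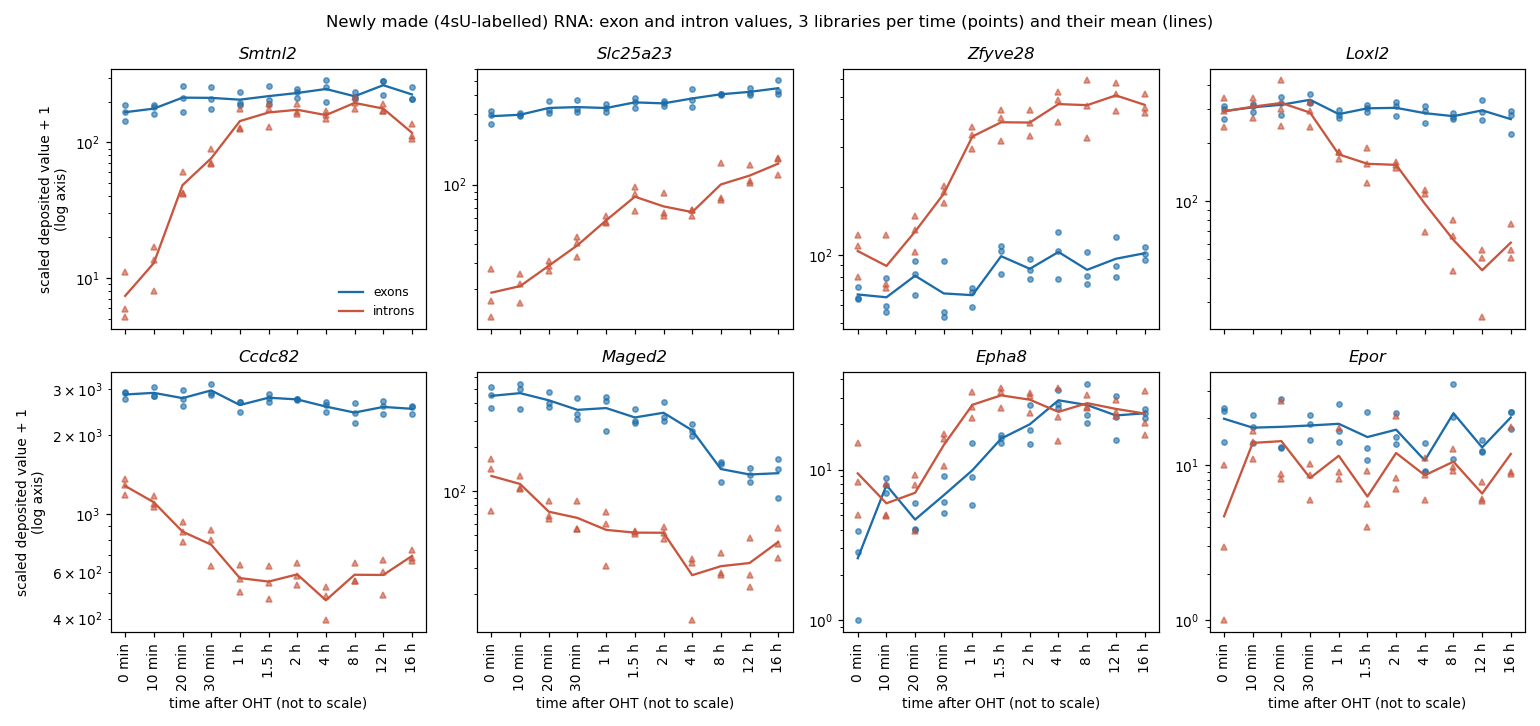
Newly made RNA of the 8 genes by time after OHT. The vertical axis is the scaled value plus 1 on a log axis, points are the 3 libraries of a time, lines join their means, blue is exons and red is introns. Introns of Smtnl2, Slc25a23 and Zfyve28 climb from the first hour while their exons rise less. Loxl2 introns fall while its exons stay near 300.

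To ask whether introns and exons also moved apart in libraries that had not chosen the genes, the labelled libraries at 8, 12 and 16 h (late, n = 9) were compared with those at 10 and 20 min (early, n = 6) by limma, leaving out 0 min and 4 h. The intron to exon ratio within each library rose for Smtnl2, Slc25a23 and Zfyve28 and fell for Loxl2 and Ccdc82. It did not pass the threshold (adjusted p under 0.05 over all genes) for Maged2, Epha8 or Epor. That is 3 of 8 higher and 2 of 8 lower, where 20.7% of the 11481 genes tested passed, 7.02% higher and 13.7% lower. The split over all genes depends on scaling: 806 genes were higher and 1576 lower, but 2699 higher and 656 lower when libraries were scaled by their sums, with the 5 calls above unchanged. The median log2 change of the ratio was 0.20 over the 8 genes and -0.0085 over all genes. With 0.1 RPKM added before the logarithm, an amount above the early new intron level of all of these genes but Ccdc82 and Maged2, the 5 calls held but the changes shrank to 0.81 for Smtnl2, 0.72 for Slc25a23, 0.45 for Zfyve28, -0.51 for Loxl2 and -0.35 for Ccdc82. All 8 genes passed the filter on low values, which required 3 or more libraries at 10 or above. Epha8 passed it in both new tables, and Smtnl2 and Epha8 in total introns, only through the times at which they were high. The genes had been chosen for a gap of this kind at 4 h.

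Smtnl2 introns in new RNA rose from near nothing. Their scaled values at 0 min were 10.1, 4.95 and 4.13, at 20 min 41.6, 40.9 and 59.6, at 1 h 125, 127 and 176, and at 4 h 169, 148 and 157. Every library from 20 min on lay above all 6 libraries at 0 and 10 min. Smtnl2 exons in new RNA were 167, 188 and 142 at 0 min and 198, 285 and 256 at 4 h, and all 3 libraries lay above the 0 and 10 min range at each time only from 1.5 h. The 4 h change that chose the gene was 4.51 on the log2 scale for introns and 0.56 for exons. In the libraries that did not choose it, early introns ran from 7.03 to 59.6 with a median of 28.4 and late introns from 105 to 213 with a median of 170, so the groups did not overlap. Introns rose by 2.72 ± 0.14 (log2 ± SE, limma adjusted p = 1.69e-15) and exons by 0.28 ± 0.10 (limma adjusted p = 0.0143), with exon values that overlapped between groups. The exon call was lost without 20 min replicate 1 (0.20, limma adjusted p = 0.0826). The ratio rose by 2.37 ± 0.14 (limma adjusted p = 1.41e-13).

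Slc25a23 introns in new RNA were 26.1, 11.9 and 15.5 at 0 min, 60.9, 66.2 and 66.2 at 4 h and 114, 148 and 151 at 16 h. They lay above the 0 and 10 min range in all libraries from 30 min on, and the highest values came at the last time. Its exons were 295, 312 and 256 at 0 min, 330, 437 and 368 at 4 h and 407, 501 and 423 at 16 h, above the 0 and 10 min range from 1.5 h. Neither exons nor introns overlapped between early and late libraries. Introns rose by 2.25 ± 0.14 (limma adjusted p = 1.68e-13), exons by 0.44 ± 0.06 (limma adjusted p = 1.65e-07) and the ratio by 1.76 ± 0.15 (limma adjusted p = 2.05e-10).

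Zfyve28 introns in new RNA were 122, 79.1 and 108 at 0 min, 200, 189 and 168 at 30 min, 369, 292 and 339 at 1 h and 481, 386 and 524 at 4 h. All libraries from 30 min on were above the 0 and 10 min range, and the level from 4 h to 16 h stayed close to that at 4 h. Zfyve28 exons were 71.5, 63.4 and 62.7 at 0 min and 77.3, 125 and 104 at 4 h, and were above that range at every time only from 12 h. Late introns did not overlap early introns, whereas late exons (73.3 to 119) overlapped early exons (55.1 to 92.8). Introns rose by 2.17 ± 0.12 (limma adjusted p = 1.58e-14), exons by 0.38 ± 0.13 (limma adjusted p = 0.0130) and the ratio by 1.78 ± 0.21 (limma adjusted p = 1.40e-07). The exon call was lost without 20 min replicate 1 (0.32, limma adjusted p = 0.0529).

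Loxl2 went the other way. Its introns in new RNA were 340, 242 and 291 at 0 min, 164, 180 and 178 at 1 h, 113, 68.1 and 108 at 4 h and 75.5, 49.5 and 55.0 at 16 h, below the 0 and 10 min range in all libraries from 1 h on. Its exons were 310, 301 and 266 at 0 min, 254, 310 and 292 at 4 h and 293, 280 and 223 at 16 h, and these overlapped. Introns fell from an early median of 307 to a late median of 54.7, a change of -2.54 ± 0.16 (log2 ± SE, limma adjusted p = 1.09e-13). The ratio changed by -2.36 ± 0.16 (limma adjusted p = 2.96e-12), the lowest value of the 11481 genes tested. Exons changed by -0.16 ± 0.07 (limma adjusted p = 0.0480), a call that was lost in 9 of the 15 fits that left out 1 library. Those libraries were replicates 1 and 2 at 10 min, replicates 1 and 3 at 20 min, replicates 1 and 3 at 8 h, replicates 1 and 2 at 12 h and replicate 3 at 16 h, with values from -0.16 to -0.12 (limma adjusted p of 0.0627 to 0.152).

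Ccdc82 had the highest new exon level per length of the 8 genes early on, 9.37 RPKM, and a smaller fall in ratio than Loxl2. Its introns were 1292, 1184 and 1368 at 0 min, 932, 857 and 785 at 20 min, 528, 393 and 486 at 4 h and 682, 665 and 729 at 16 h. All libraries from 20 min on were below the 0 and 10 min range, and the values at 16 h lay above those at 4 h. Its exons were 2928, 2897 and 2754 at 0 min and 2669, 2596 and 2450 at 4 h. Introns fell by 0.66 ± 0.08 on the log2 scale (limma adjusted p = 4.22e-08), with no overlap between early and late. Exons changed by -0.18 ± 0.04 (limma adjusted p = 0.000699) and the ratio by -0.48 ± 0.08 (limma adjusted p = 3.62e-05), both with overlapping groups.

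For Epha8 the ratio did not pass between early and late libraries unless 0.1 RPKM was added. Its exons in new RNA were 2.90, 0 and 1.84 at 0 min, 7.74, 5.96 and 6.93 at 10 min and 32.7, 24.4 and 26.2 at 4 h, so the 0 min libraries were lower than those at 10 min. Its introns were 14.1, 3.96 and 7.23 at 0 min and 21.3, 14.4 and 33.6 at 4 h, and reached their higher level in all libraries at 1 h, while exons did so at 1.5 h. Between early and late, introns rose by 2.01 ± 0.21 (limma adjusted p = 3.40e-09) and exons by 1.99 ± 0.24 (limma adjusted p = 2.22e-08), neither overlapping. All 6 early libraries were below the filter value of 10 in both exons and introns, so Epha8 entered the fit only through later times at which it was higher, and its rises had to differ. The ratio changed by 0.03 ± 0.28 (limma adjusted p = 0.959). With 0.1 RPKM added it changed by -0.49 (limma adjusted p = 0.000472). That amount is above its early new exons and above its new introns early (0.005 RPKM) and late (0.022 RPKM). The value of -0.49 therefore mostly follows the exons and does not bear on the 4 h gap of -2.25. The size of that gap rests partly on the 1 added before the logarithm, since exons at 0 min reached down to 0. Epha8 values are low, and a change in its ratio would have had to be well above the standard error of 0.28 to pass.

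Maged2 fell in both introns and exons, introns first. Its introns in new RNA were 72.4, 165 and 140 at 0 min, 12.2, 33.6 and 31.6 at 4 h and 42.7, 55.4 and 34.3 at 16 h, below the 0 and 10 min range from 1 h on. Its exons were 369, 516 and 452 at 0 min, 254.8, 236 and 286 at 4 h and 141, 165 and 89.4 at 16 h, below that range only from 4 h. Introns changed by -1.37 ± 0.18 on the log2 scale (limma adjusted p = 1.59e-07) and exons by -1.72 ± 0.13 (limma adjusted p = 3.99e-13), with no overlap. The mean log2 ratio of Maged2 was -1.87 at 0 min, -2.03 at 10 min, -2.51 at 20 min and -2.78 at 1 h. It was -2.69 at 2 h, -3.34 at 4 h, -2.17 at 8 h and -1.52 at 16 h. The means from 20 min to 2 h were below that at 10 min, as at 4 h. Those from 30 min to 2 h were in neither tested group. Late against early, the ratio changed by 0.36 ± 0.13 (limma adjusted p = 0.0516), opposite in sign to its 4 h gap of -1.51. It passed the threshold without 10 min replicate 1, 8 h replicate 3, 12 h replicate 2, 12 h replicate 3 or 16 h replicate 1, with values from 0.39 to 0.42 (limma adjusted p of 0.0291 to 0.0466). It also passed with scaling by library sums (0.47, limma adjusted p = 0.0121), with 10 added (0.48, limma adjusted p = 0.00312), with 0.1 RPKM added (0.72, limma adjusted p = 7.27e-06) and with a filter of 50 (0.36, limma adjusted p = 0.0434), so whether it passes rests on the processing.

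Epor was low in every library. Its introns in new RNA were 9.05, 1.98 and 0 at 0 min and 10.2, 7.67 and 4.94 at 4 h, and its exons were 22.2, 13.1 and 21.2 at 0 min and 12.9, 8.15 and 8.05 at 4 h. Its introns at 10 min were 13.1, 9.96 and 15.6, above all 3 libraries at 0 min, and no later time lay wholly outside the 0 and 10 min range. The changes were -0.51 ± 0.31 for introns (limma adjusted p = 0.149), 0.03 ± 0.24 for exons (limma adjusted p = 0.931) and -0.50 ± 0.31 for the ratio (limma adjusted p = 0.279). A gap like the 2.31 at 4 h was not detected in these libraries. The size of that gap rests partly on the 1 added before the logarithm, since introns at 0 min reached down to 0.

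**Figure D2:**
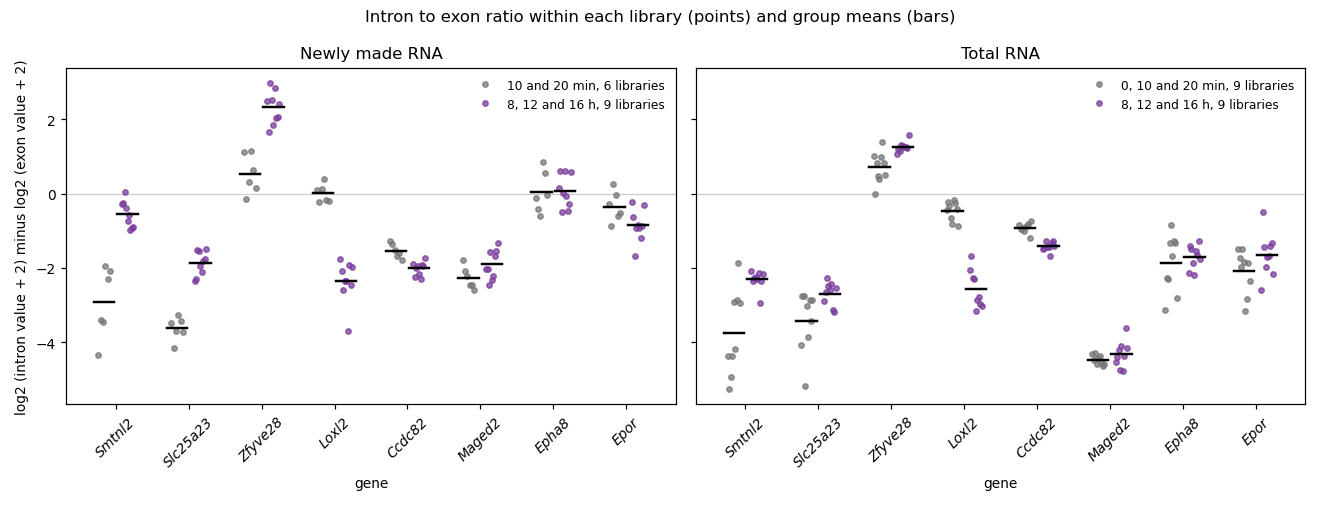
Intron to exon ratio within each library for the 8 genes, in newly made RNA and in total RNA. The vertical axis is log2 (intron value + 2) minus log2 (exon value + 2), points are libraries, bars are group means, grey is early and purple is late. In newly made RNA the late points of Smtnl2, Slc25a23 and Zfyve28 lie above all early points and those of Loxl2 below them, while Epha8 and Epor overlap.

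In new introns taken alone, 4 of 8 genes rose (Epha8 through the limit of the filter given above) and 3 fell, where 62.8% of genes passed, 32.8% higher and the rest of those lower. In new exons 4 rose (Epha8 again through that limit) and 3 fell, where 59.0% passed, 30.5% higher and 28.5% lower. With 8 genes, these shares are not far from the background.

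Total RNA was not used to choose the genes. At 4 h against 0 min, total exons rose for Smtnl2, Slc25a23, Zfyve28 and Epha8 and fell for Ccdc82 and Maged2, so 4 of 8 were higher and 2 lower, where 39.2% of genes passed, 19.7% higher and 19.5% lower. Smtnl2 exons were 60.8, 74.0 and 59.5 at 0 min and 277, 225 and 252 at 4 h, a rise of 1.94 ± 0.13 (log2 ± SE, limma adjusted p = 6.97e-13). Zfyve28 exons were 28.97, 32.5 and 39.0 at 0 min and 85.2, 77.8 and 86.6 at 4 h, a rise of 1.297 ± 0.157 (limma adjusted p = 1.16e-07). No library of these genes at 4 h fell within the range at 0 min. Slc25a23 rose by 0.64 ± 0.13 (limma adjusted p = 0.000172) and Epha8 by 2.24 ± 0.33 (limma adjusted p = 3.54e-06). Ccdc82 changed by -0.47 ± 0.09 (limma adjusted p = 0.000147) and Maged2 by -0.61 ± 0.08 (limma adjusted p = 1.07e-06). Loxl2 exons were 286, 222 and 212 at 0 min and 222, 169 and 185 at 4 h, which overlapped, with a change of -0.32 ± 0.15 (limma adjusted p = 0.0932) that passed only without 4 h replicate 1 (-0.43, limma adjusted p = 0.0421). Epor changed by 0.04 ± 0.27 (limma adjusted p = 0.932).

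Introns in total RNA at 4 h rose for Smtnl2, Slc25a23, Zfyve28 and Epha8 and fell for Loxl2, Ccdc82 and Maged2. That is 4 of 8 higher, of which Smtnl2 and Epha8 passed the filter only through their later, higher values, and 3 lower, where 39.8% of genes passed, 20.3% higher and 19.5% lower. Smtnl2 introns were 1.02, 0 and 0 at 0 min, 58.1, 59.9 and 59.96 at 1 h and 73.8, 65.5 and 52.9 at 4 h, so a fold against 0 min would be set by the pseudocount and is not given. Zfyve28 introns rose by 2.06 ± 0.19 (limma adjusted p = 1.50e-10) and Slc25a23 introns by 1.09 ± 0.38 (limma adjusted p = 0.0219). The Slc25a23 call was lost without 0 min replicate 1 (0.67, limma adjusted p = 0.203), whose value of 9.20 was below the 23.7 and 23.4 of the other libraries, without 4 h replicate 2 (1.04, limma adjusted p = 0.0598) and without 4 h replicate 3 (1.08, limma adjusted p = 0.0523). Loxl2 introns were 208, 191 and 169 at 0 min and 107, 55.8 and 113 at 4 h, a change of -1.10 ± 0.22 (limma adjusted p = 0.000137). Ccdc82 introns changed by -1.07 ± 0.09 (limma adjusted p = 2.72e-11) and Maged2 introns by -0.92 ± 0.18 (limma adjusted p = 9.15e-05).

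The intron to exon ratio in total RNA at 4 h passed for 2 of the 8 genes, where 2.84% of genes did, 1.49% higher and 1.35% lower. It fell by 0.60 ± 0.09 for Ccdc82 (limma adjusted p = 0.000141). Smtnl2 passed as higher, but its introns near 0 at 0 min let the added constant set both the size and the sign: the change was positive with 2 added and -1.10 with 0.1 RPKM added (limma adjusted p = 7.24e-07), so no size is given for it. Smtnl2 also entered this fit only through its later, higher introns. Over all genes 171 were higher and 154 lower, but leaving out a library took these counts to as few as 77 and 76. Zfyve28 (0.77 ± 0.26, limma adjusted p = 0.109) and Loxl2 (-0.77 ± 0.23, limma adjusted p = 0.0648) did not pass, though Loxl2 did without 4 h replicate 3 (-0.97, limma adjusted p = 0.0334) and Zfyve28 did with 10 added (0.78, limma adjusted p = 0.0487). With 0.1 RPKM added Zfyve28 changed by -0.50 (limma adjusted p = 0.00357). That amount is above its total introns at 0 min (0.0099 RPKM) and 4 h (0.040 RPKM), so this value follows its exons more than its introns.

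**Figure D3:**
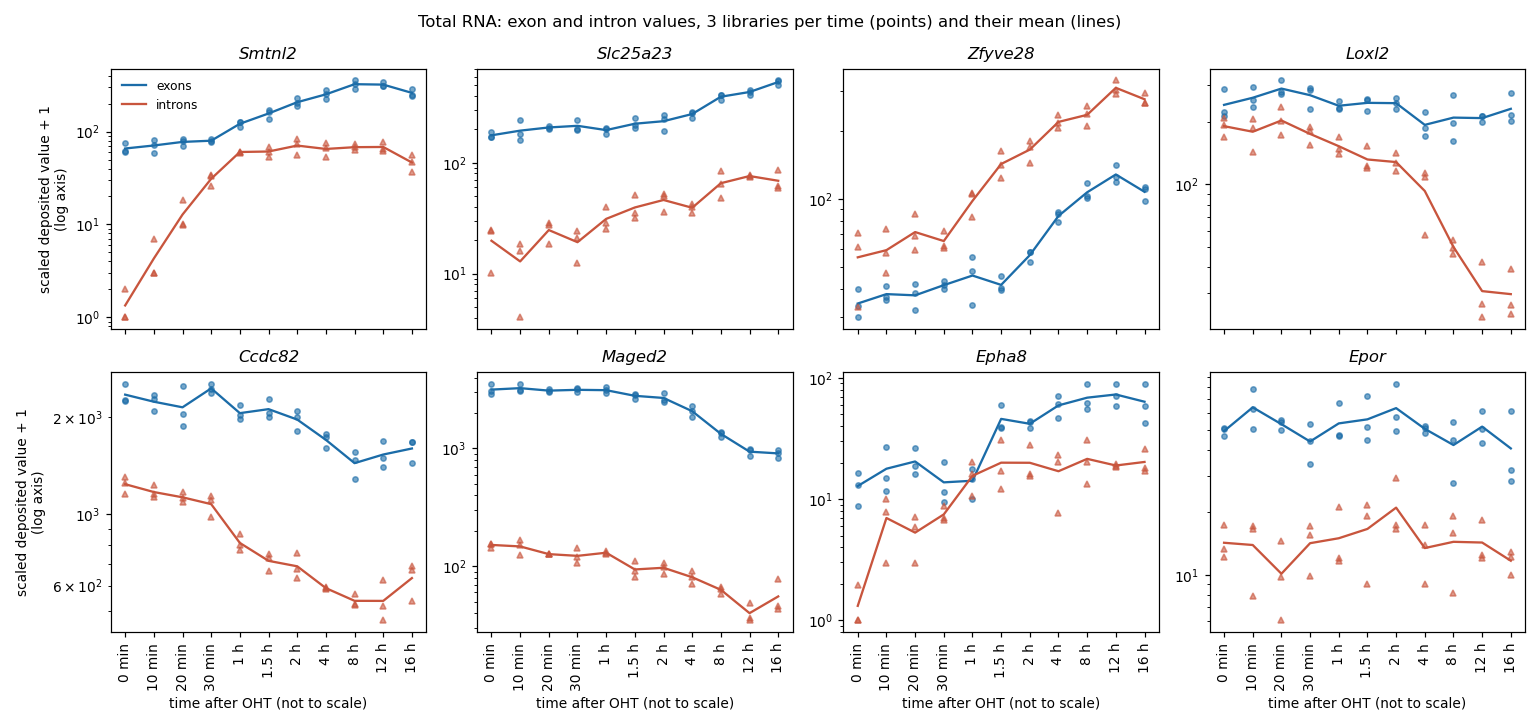
Total RNA of the 8 genes by time after OHT, drawn as for newly made RNA: scaled value plus 1 on a log axis, 3 libraries per time as points and their means as lines, blue for exons and red for introns. Exons of Smtnl2, Slc25a23, Zfyve28 and Epha8 rise, those of Maged2 fall from about 3160 to about 907, and Loxl2 introns fall while its exons stay above 160.

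By 8, 12 and 16 h the gap in total RNA had grown for Loxl2. Its introns ran from 142 to 233 in the 9 libraries at 0, 10 and 20 min and from 21.99 to 53.1 in the 9 late libraries, a change of -2.43 ± 0.13 (limma adjusted p = 1.48e-17). Its total exons overlapped between the groups and changed by -0.29 ± 0.09 (limma adjusted p = 0.00344), and the ratio changed by -2.11 ± 0.13 (limma adjusted p = 1.68e-13). Ratios also rose for Smtnl2 (1.44 ± 0.18, limma adjusted p = 3.19e-07), Slc25a23 (0.73 ± 0.21, limma adjusted p = 0.00961) and Zfyve28 (0.54 ± 0.15, limma adjusted p = 0.00616), and fell for Ccdc82 (-0.50 ± 0.05, limma adjusted p = 3.88e-08). That is 3 of 8 higher and 2 lower, where 25.6% of genes passed, 11.3% higher and 14.3% lower. Smtnl2 entered this fit only through its later, higher introns, so its rise and p-value are not independent of the filter. These values depend on the amount added before the logarithm. With 10 added the Smtnl2 change was 0.31 and that of Slc25a23 was 0.35, neither passing, and with 0.1 RPKM added Smtnl2, Slc25a23 and Zfyve28 changed by -1.34, -0.44 and -0.70. With 0.1 RPKM added the Loxl2 ratio changed by -0.11 (limma adjusted p = 0.294) and no longer passed. That amount is above the early total introns of Smtnl2 (0.0044 RPKM), Slc25a23 (0.027 RPKM), Zfyve28 (0.011 RPKM) and Loxl2 (0.038 RPKM). These values therefore follow the exons more than the introns. For 16 h alone against 10 min alone, the calls were also lost for the ratios of Slc25a23 (1.06, limma adjusted p = 0.0771) and Zfyve28 (0.74, limma adjusted p = 0.0786) and for Loxl2 total exons (-0.18, limma adjusted p = 0.306).

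The 3 genes whose new introns rose by more than their new exons had total exons that rose. Late against early, Smtnl2 total exons went from a median of 70.9 to 307, a rise of 2.08 ± 0.07 (limma adjusted p = 2.68e-20), beside the 2.72 of its new introns and the 0.28 of its new exons. Slc25a23 total exons rose by 1.23 ± 0.07 (limma adjusted p = 4.54e-15), beside 2.25 and 0.44, and Zfyve28 total exons by 1.64 ± 0.09 (limma adjusted p = 7.92e-16), beside 2.17 and 0.38. Loxl2 total exons changed by -0.29, beside -2.54 for new introns and -0.16 for new exons. Labelled and total tables were normalised separately and their early times differ by 0 min, so these changes are set side by side and their difference was not tested. Total exons also rose for Epha8 (2.05 ± 0.19, limma adjusted p = 1.19e-10) and fell for Maged2 (-1.60 ± 0.05, limma adjusted p = 9.87e-22) and Ccdc82 (-0.56 ± 0.05, limma adjusted p = 1.32e-10). With Loxl2 and Epor, 4 of 8 were higher and 4 lower in total exons, where 71.2% of genes passed, 34.5% higher and 36.7% lower. In total introns 4 were higher, Smtnl2 and Epha8 with the same limit from the filter, and 3 lower, where 61.3% passed, 31.5% higher and 29.7% lower. Epor total exons changed by -0.35 ± 0.15 (limma adjusted p = 0.0448), a call lost in 12 of the 18 fits without 1 library. Those were replicates 1, 2 and 3 at 0 min, 2 and 3 at 10 min, 2 and 3 at 20 min, 2 at 8 h, 1 and 2 at 12 h, and 1 and 2 at 16 h, with values from -0.36 to -0.26 (limma adjusted p of 0.0503 to 0.131).

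Per length, the new introns of 6 of the genes were few against their exons. In RPKM, new introns at 10 and 20 min were 2.11% of new exons for Smtnl2, 3.57% for Slc25a23, 5.60% for Ccdc82, 6.67% for Loxl2, 7.91% for Zfyve28 and 8.05% for Maged2. The median was 34.6% over the 10020 genes with a mean new exon value of at least 50, and 0.729% to 4.20% of those genes lay below these 6. By 8, 12 and 16 h the share was 9.55% for Smtnl2, 12.96% for Slc25a23 and 26.995% for Zfyve28, and 1.298% for Loxl2, against a median of 34.2%. Epha8 and Epor were under the mean of 50 and were not ranked.

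The same changes were then set out as differences in RPKM instead of ratios, a comparison added after the values had been seen. Smtnl2 new exons were 0.323 ± 0.146 RPKM (SE) higher late than early and its new introns 0.146 ± 0.017 RPKM higher, so the exon difference was 2.21 times the intron difference. That quotient was 2.56 for Slc25a23, 1.11 for Zfyve28 and 1.86 for Loxl2. It was 4.61 for Epha8, 5.60 for Ccdc82 and 14.1 for Maged2. Over the 2343 genes whose new introns passed the test with a log2 change of at least 0.5 in size, the median was 2.44 and the middle 50% ran from 1.63 to 3.81. On this scale Smtnl2, Slc25a23 and Loxl2 lay within the middle 50%, Zfyve28 below it, and Epha8, Ccdc82 and Maged2 above it. The log2 changes of introns and exons were far apart for Smtnl2, Slc25a23, Loxl2 and Zfyve28. The cause of that gap was not tested. The standard errors of the exon differences are wide (0.0347 RPKM on 0.0958 for Zfyve28 and 0.0555 on -0.124 for Loxl2), so the quotients are rough.

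**Figure D4:**
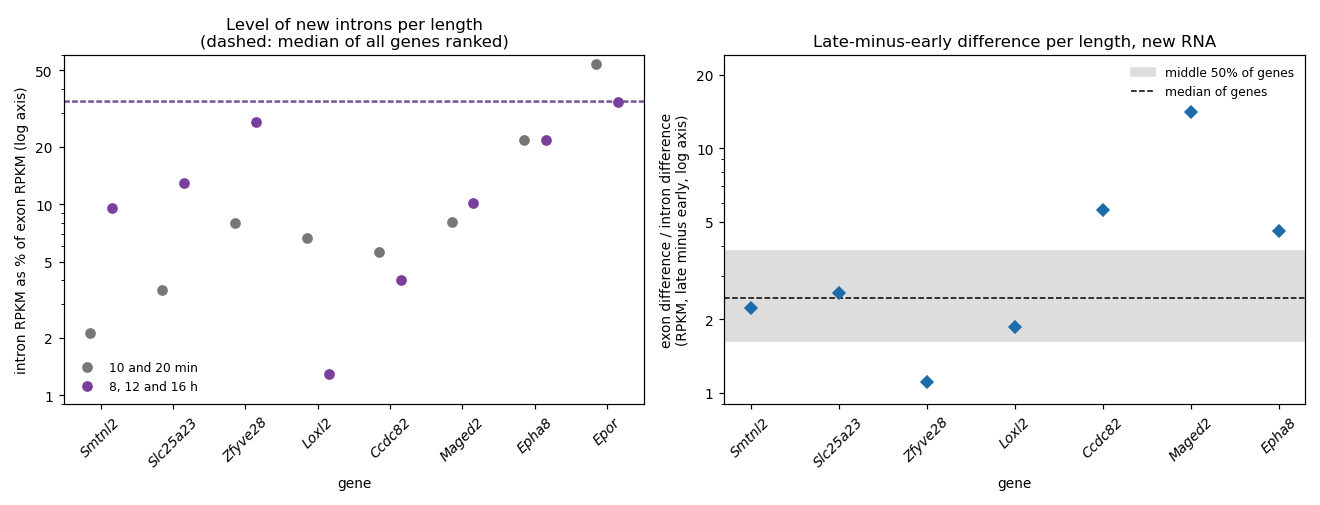
Left, new introns per length as a percentage of new exons per length (RPKM, log axis) early in grey and late in purple for the 8 genes, with the median of 10020 genes dashed. Right, the late minus early difference of new exons divided by that of new introns (RPKM, log axis) for the 7 genes whose new introns passed the test, with the middle 50% of 2343 genes shaded from 1.63 to 3.81 and their median of 2.44 dashed.

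The exons of these genes were also searched for repeated sequence, which the choice had not used. Repeats were found as bases whose 16-letter words occur at least 100 times in mm9. A first criterion, at least 100 such bases in the exons, was met by 4 of the 7 genes with an annotation and by 69.7% of 10543 genes. It was replaced, after these values were seen, by a stretch of at least 150 bases, which the same 4 of 7 met, with 22.5% of genes; the second share is therefore not independent of the choice and is given without a test. The 4 genes were Slc25a23 (371 bases), Zfyve28 (306), Smtnl2 (234) and Loxl2 (202). Epor, Epha8 and Maged2 had no stretch of 50 bases or more. Ccdc82, without an annotation, was not searched. The Smtnl2 stretch, chr11:72204224-72204457, lies in an exon carried by 3 of 5 annotated transcripts, the Slc25a23 stretch, chr17:57196364-57196734, in 1 of 6, the Zfyve28 stretch, chr5:34564792-34565097, in 1 of 7, and the Loxl2 stretch, chr14:70095314-70095515, in 1 of 4. The sources used here do not name the annotation used for counting. The deposited ratio of intron to exon length was 15.2 for Loxl2, equal to GENCODE's to 3 digits, but 7.23 against 4.91 for Smtnl2, 18.8 against 15.0 for Zfyve28 and 2.14 against 2.05 for Slc25a23. Whether reads from these stretches are part of the exon values was not tested.

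Neighbours in the tables within 10 kb were R3hcc1, Mxd4 and Rgl3. R3hcc1, 1472 bases from Loxl2 on the other strand, changed by -0.97 ± 0.07 in new introns (limma adjusted p = 4.15e-12) and -0.77 ± 0.06 in new exons (limma adjusted p = 2.58e-12). Its ratio changed by -0.20 ± 0.07 (limma adjusted p = 0.0451), beside -2.36 for Loxl2. Mxd4, a member of the Max network, 7154 bases from Zfyve28, changed by -1.10 ± 0.08 in new introns (limma adjusted p = 1.82e-12) and -0.89 ± 0.10 in new exons (limma adjusted p = 5.48e-09), while both rose for Zfyve28. Rgl3, 7951 bases from Epor, changed by -0.09 ± 0.11 in new introns (limma adjusted p = 0.493) and -0.36 ± 0.09 in new exons (limma adjusted p = 0.00107).

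Of 44 relatives of these genes that were listed, such as lysyl oxidases, smoothelins, Eph receptors and MAGE genes, 29 were in the tables. Their new ratio passed higher for 1 and lower for 3, beside the 7.02% and 13.7% of all genes. Maged1, a MAGE gene, rose by 0.33 ± 0.09 (limma adjusted p = 0.00979). Efna5, an ephrin-A ligand, changed by -0.30 ± 0.05 (limma adjusted p = 5.19e-05), Sh2b3, an adaptor of cytokine receptor signalling, by -0.19 ± 0.05 (limma adjusted p = 0.0133), and Egfr, the epidermal growth factor receptor, by -0.16 ± 0.05 (limma adjusted p = 0.0332). The Eph receptors Ephb2 (-0.12 ± 0.05, limma adjusted p = 0.0585) and Ephb4 (0.17 ± 0.07, limma adjusted p = 0.0778) did not pass. The median change over the 29 relatives was -0.012 in the ratio, -0.37 in new exons and -0.38 in new introns. In new exons 6 relatives passed higher and 19 lower, beside 30.5% and 28.5% of all genes. In new introns 4 passed higher and 19 lower, where 62.8% of all genes passed, 32.8% higher and the rest of those lower. The difference from all genes was not tested.

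The genes whose mean new ratio followed Smtnl2 most closely over the 11 times were Dpf1 (Pearson r = 0.93), Zfyve28 (0.92) and Btc (0.91), among 1094 genes whose ratio spanned at least 1 on the log2 scale. For Loxl2 they were Dfna5 (0.98), Col18a1, a basement membrane collagen (0.97), and Traf5 (0.97). The 11 means share libraries and include the times that chose the genes, so these values only describe. Btc was also low, with mean scaled values of 8.83 in new exons and 19.2 in new introns.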

How the data were processed

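RNA of 66 libraries (22 groups of 3) was analysed, grouped and numbered by sample titles. The submitters' processing notes name TopHat2 2.0.8, TopHat and mm9 with no role, and the sources used here do not give the counting tool, annotation or use of strand. The authors deposited 8 tables. In those named counts, the authors deposited a score: whole numbers that, from the values, were rescaled between libraries, since some small whole numbers were nearly missing in 13 of 66 libraries. No count model was used on them. The RPKM the authors deposited are close to those numbers times 1 constant per gene in each table.

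Values were scaled by trimmed means of log ratios (TMM, 30% of ratios and 5% of levels trimmed at each end) over the 33 libraries of a table. Log2 of the scaled value plus 1, or the within-library ratio with 2 added to both parts, was fitted in limma 3.58.1 (R 4.3.3), two-sided, with Benjamini-Hochberg adjustment over all genes having at least 10 in at least 3 libraries. Fold changes on this scale understate low genes. New RNA was fitted on 27 libraries without 0 min and 4 h, total RNA on 33. The tests were tried on simulated data. Design and relatives were written down with earlier results of these data known, as were the genes; named genes are the 8, up to 6 relatives with the smallest p for the new ratio, neighbours within 10 kb, and the 3 genes most like Smtnl2 and Loxl2 in ratio. Deviations of same-numbered libraries correlated above 0.1 in every pair for total exons at 4 h against 0 min (0.123 to 0.186, 3 pairs) and in 2 of 3 pairs for total introns; late against early, 20 of 27 pairs of total exons and 19 of 27 of total introns correlated best with their own number. This is a hint from the data, since the labels give no pairing.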

Additional observations from a re-analysis of the deposited data

How the results depend on the processing

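Alternatives were another scaling, no scaling, other added constants, other filters, 16 h alone against 10 min alone, and leaving out each library. The ratio calls of Smtnl2, Slc25a23, Zfyve28, Loxl2 and Ccdc82 in new RNA passed in the same direction under all of them. A filter of 50 left out Epha8 and Epor except in total exons. Genes with a higher and a lower new ratio numbered 2699 and 656 with scaling by sums, 425 and 866 without scaling, and 75 and 220 for 16 h against 10 min. Total ratios at 4 h gave 59 lower genes without scaling and 251 with 0.1 RPKM added, and 77 to 135 higher and 76 to 136 lower without 1 library. For 16 h against 10 min, total introns gave 2362 and 2181 genes and total ratios 350 and 394; with 0.1 RPKM, total ratios gave 2381 higher. With 0.1 RPKM added the sign reversed for the new ratio of Epha8 (-0.49, which passed), the total ratio at 4 h of Smtnl2 (-1.10), Slc25a23 (-0.26), Zfyve28 (-0.50), Loxl2 (0.055) and Epha8 (-0.94), and the late total ratio of Smtnl2 (-1.34), Slc25a23 (-0.44), Zfyve28 (-0.70) and Epha8 (-0.94). With 10 added Epha8 total ratios were -0.37 at 4 h and -0.44 late. Epor total exons at 4 h were -0.018 without scaling. For 16 h against 10 min, Epor total introns were -0.18 and the Epha8 total ratio was -0.28. Without 1 library, values that crossed 0 ran from -0.093 to 0.13 for the Epha8 new ratio, -0.10 to 0.20 for Epor new exons, -0.0016 to 0.066 for Epor total exons at 4 h, -0.33 to 0.14 for its total introns, -0.32 to 0.11 for its total ratio, -0.030 to 0.63 for the Slc25a23 total ratio at 4 h and -0.012 to 0.23 for Epor late total introns. Where the sign reversed with 0.1 RPKM added, that amount was above the gene's introns at the earlier times (at most 0.038 RPKM, Loxl2 total introns at 0 min). In those values the added amount outweighs the introns. The cause of the other changes was not tested.

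With the replicate number as a block, 862 genes had a higher and 1678 a lower new ratio, and the Smtnl2 change was 2.37. The block changed no call of the 8 genes and moved no count of genes by over 1.5 times. Depth is unknown, a library without 4sU is not analysed here, and values under about 10, as for Epor and Epha8, limit what can be seen.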

Other observations

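A set of genes with still lower new introns was counted for the same repeats; none of the 8 genes is in it. Among the 10020 genes with a mean new exon value of at least 50, 66 had new introns under 2% of new exons per length at 10 and 20 min. Of the 58 of them with an annotation, 26 (44.8%) had an exonic repeat stretch of at least 150 bases, against 2192 (23.8%) of all 9200 annotated genes of this kind. The 2% limit and the 150 bases were both set after values had been seen, so these shares are a description without a test. Exon length was not taken into account, and a link between repeats and low introns was not tested.

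In total RNA the late minus early difference of exons, in RPKM, was 30.5 times that of introns for Smtnl2, 10.99 times for Slc25a23, 6.89 times for Zfyve28, 4.69 times for Loxl2, 7.32 times for Ccdc82, 15.8 times for Epha8 and 61.1 times for Maged2. The median over 2387 genes was 18.5, with the middle 50% from 8.30 to 37.0.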
